A study of Homo sapiens with 12 samples.

Results

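SUM149PT is an established basal-like breast cancer cell line, and the study describes it as p53-mutated. The 4 libraries described here are those titled SUM149PT: 2 from cells transfected with LNA1 and LNA2 together against the long non-coding RNA (lncRNA) RP11-19E11.1 (knock-down), and 2 from cells transfected with a non-targeting LNA (LNA NS). They are 4 of the 12 libraries of the series. MDA-MB-468 and HCC38, also basal-like lines, were given the same treatments, with 2 libraries per group. In every group the LNA was at 50 nM, it was added at seeding, the medium was replaced after 6 h, and the cells were collected at 24 h. SUM149PT was grown with serum, insulin and hydrocortisone. Its cells were a gift of another laboratory. None of the study's cell lines was authenticated. The media given for MDA-MB-468 and HCC38 held serum without insulin or hydrocortisone. Differences between the lines therefore cannot be told apart from differences between their media. Both LNAs were given as 1 mix, so what each of them did cannot be told apart. The sources do not name separate cultures as the origin of the replicates, so p-values rest on the spread between the 2 libraries of each group, which may be technical.

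An LNA GapmeR is a short antisense oligonucleotide with locked nucleic acid ends that directs RNase H to the RNA it pairs with. Basal-like tumor cells carry keratins and adhesion receptors of the outer, basal layer of the mammary gland, and they express little or no estrogen and progesterone receptor. The epithelial program that some of the genes below belong to is run by transcription factors such as the grainyhead-like and ELF families, which act on junction, barrier and differentiation genes. Interferon-stimulated genes are a separate program, switched on when cells sense foreign or misplaced nucleic acid or receive interferon.

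PolyA RNA was sequenced and the counts per gene summed to 34169578 and 56191152 in the knock-down libraries and to 32187835 and 38929741 in the LNA NS libraries. Levels are given in CPM, which are counts scaled to library size with TMM factors. A gene was called when it changed by more than 2-fold with an adjusted p under 0.1 in edgeR's quasi-likelihood test, which was fitted to all 12 libraries and adjusted over 21325 genes by the Benjamini-Hochberg method, and all adjusted p-values below are from it. Errors of log2 fold changes are standard errors, with 2 libraries in each group. "Rose" and "fell" are used at an adjusted p under 0.1. KRT5, a basal keratin, was at 1352 and 1292 CPM after knock-down and at 1884 and 1869 CPM with LNA NS. KRT14, another, was at 54.1 and 58.3 CPM after knock-down and at 57.3 and 60.8 CPM with LNA NS. The 21 basal markers summed to 6916 and 6593 CPM after knock-down and to 8883 and 8382 CPM with LNA NS. Luminal markers were present too, and 24 of them summed to 3914 and 3993 CPM after knock-down and to 3948 and 4007 CPM with LNA NS. ESR1, the estrogen receptor, was at 1.30 and 0.772 CPM after knock-down and at 2.87 and 2.28 CPM with LNA NS, and CD3D, a T cell gene, had no count. Of 24 blood and endothelial markers 6 had no count in the 4 libraries, and their summed level was 19.6 and 20.2 CPM after knock-down and 18.7 and 17.5 CPM with LNA NS. Of the 8 that were tested 2 rose (25%) and 1 fell (12.5%), beside 20.0% and 18.0% of all genes. Among them CDH5, the cadherin of endothelium, was at 2.08 and 2.23 CPM after knock-down and at 0.241 and 0.423 CPM with LNA NS (log2 fold change 2.71). The part of such cells in the results was not tested.

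The targeted lncRNA (ENSG00000258910, annotated as LINC01956, on the minus strand of chromosome 2 of GRCh37 from 119524541 to 119592686) was at 0.576 and 0.416 CPM in the knock-down libraries and at 10.7 and 11.2 CPM in the LNA NS libraries. The libraries thus stood on the side their labels give. It fell by 4.41 ± 0.23 on the log2 scale (adjusted p = 6.6e-09), which was further than in HCC38 (difference −1.32, adjusted p = 0.015), while the difference from MDA-MB-468 was 0.33 (adjusted p = 0.83). EN1, the homeobox gene next to it, was at 18.9 and 21.5 CPM after knock-down and at 20.7 and 25.9 CPM with LNA NS, a log2 fold change of −0.20 (adjusted p = 0.32).

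Across all genes, more were called higher than lower after knock-down. Of the 21325 genes tested, 1345 were called higher (6.31%) and 920 lower (4.31%), and at an adjusted p under 0.1 without a limit on the fold 4260 rose (20.0%) and 3841 fell (18.0%). The excess of higher calls was made of weakly expressed genes: 666 of the 1345 had a mean under 1 CPM after knock-down, and 120 had no count in either LNA NS library. Among genes with at least 1 CPM in the group where they were higher, 679 were called higher and 738 lower. When every library had to hold at least 10 counts, 505 were called higher and 593 lower, so the higher calls were then 46.0% of all, against 59.4% with the filter used. Genes called lower spanned more of the genome (median 77338 bp) than genes called higher (median 15741 bp), and over all genes tested the median was 21770 bp.

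**Figure D1:**
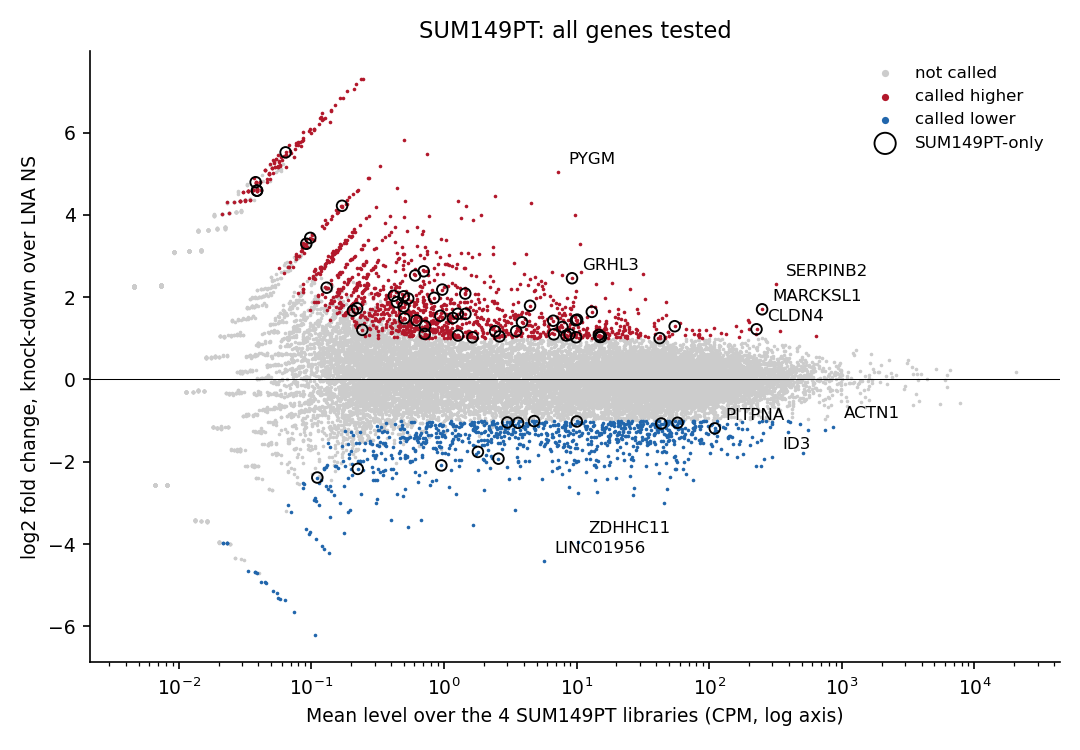
Each point is one of the 21325 genes tested, with its mean level over the 4 SUM149PT libraries (CPM, log axis) against its log2 fold change (knock-down over LNA NS). Red points are the 1345 genes called higher, blue points the 920 called lower, and circles mark the 65 genes called in SUM149PT whose change was under 1.5-fold in both other lines (SUM149PT-only). Many of the higher calls lie at low levels, on the left.

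The largest rises among protein-coding genes began from very low levels. PYGM, the glycogen phosphorylase of muscle, was at 12.1 and 16.2 CPM after knock-down and at 0.482 and 0.358 CPM with LNA NS, a log2 fold change of 5.04 ± 0.27 (adjusted p = 6.8e-09). FES, a cytoplasmic tyrosine kinase, was at 7.33 and 9.86 CPM after knock-down and at 0.643 and 0.195 CPM with LNA NS (log2 fold change 4.28). IL12RB2, a subunit of the interleukin-12 receptor, was at 2.18 and 2.70 CPM after knock-down and at 0.134 and 0.0977 CPM with LNA NS (log2 fold change 4.33). In each of these genes the groups were far apart, which is partly built in for genes picked by the size of their change. Each also rose in MDA-MB-468, PYGM by 5.19 and FES by 4.49 on the log2 scale. There IL12RB2 had 128 counts in the knock-down libraries and 3 in the LNA NS libraries. After scaling this is a ratio of 36.8 (95% interval 12.3 to 181, counting error only). HCC38 differed for all of them, with differences of 1.78 for PYGM, 3.79 for FES and 4.43 for IL12RB2 (largest adjusted p = 0.0068). In SUM149PT, ERN2, an endoplasmic reticulum stress sensor of secretory epithelium, had 120 counts in the knock-down libraries and 2 in the LNA NS libraries (scaled ratio 46.7, 95% interval 12.6 to 390). Among the largest falls, ZDHHC11, a palmitoyltransferase, was at 1.32 and 1.16 CPM after knock-down and at 18.4 and 20.1 CPM with LNA NS, and fell by 3.94 on the log2 scale here, by 4.21 in MDA-MB-468 and by 3.93 in HCC38. USP40, a deubiquitinase, was at 10.7 and 9.30 CPM after knock-down and at 83.0 and 79.0 CPM with LNA NS (log2 fold change −3.01).

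By gain in CPM, the leading genes were SERPINB2, BRD2, SNHG1, MARCKSL1 and CLDN4. SERPINB2, an inhibitor of plasminogen activators, was at 496 and 563 CPM after knock-down and at 102 and 112 CPM with LNA NS (log2 fold change 2.31 ± 0.18, adjusted p = 2.4e-07). SNHG1, a host gene of small nucleolar RNAs, was at 492 and 464 CPM after knock-down and at 195 and 225 CPM with LNA NS (log2 fold change 1.19). Largest by loss were ACTN1, FTL, PTPRF, GSTP1 and TGFBI. ACTN1, an actin cross-linker, was at 562 and 514 CPM after knock-down and at 1271 and 1116 CPM with LNA NS (log2 fold change −1.15 ± 0.10, adjusted p = 1.1e-06). GSTP1, which conjugates glutathione, was at 240 and 223 CPM after knock-down and at 746 and 844 CPM with LNA NS, and its fall of 1.78 on the log2 scale was larger than in HCC38 (difference −0.99) and smaller than in MDA-MB-468 (difference 0.72, adjusted p = 0.0073 and 0.0015 for the differences from MDA-MB-468 and HCC38).

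The calls were then compared with those of the other lines. Of the 1345 genes called higher, 372 were also called higher in MDA-MB-468 alone, 102 in HCC38 alone, 253 in both and 618 in neither. Of the 920 called lower, the numbers were 262, 48, 382 and 228. Being called in SUM149PT and not elsewhere did not by itself mean a different change: for 506 of the 618 and 203 of the 228, the change did not differ from both other lines at an adjusted p under 0.1. To name genes whose change was large in this line alone, 3 conditions were therefore set: a call in SUM149PT, a change that differed from each of the other lines further in its own direction (each at an adjusted p under 0.1 over all genes), and a change under 1.5-fold in either direction in both other lines. These conditions were met by 65 genes, of which 53 rose (0.249% of genes tested) and 12 fell (0.0563%), and they are called SUM149PT-only genes here. The name refers to the limit on the fold: 18 of the 53 also rose in at least 1 other line at an adjusted p under 0.1, and 2 of the 12 also fell in one, by less than 1.5-fold. Counting moves in either direction, 27 of the 65 moved in another line at that adjusted p. At least 1 CPM was reached by 34 of the 53 and 10 of the 12. Which genes met the conditions depended on single libraries. Without SUM149PT knock-down replicate 2, most of the 12 that fell no longer met them, and other genes that fell did. Just inside the limit of 1.5-fold (0.58 on the log2 scale) lay CDCA7 with a log2 fold change of −0.58 in MDA-MB-468, and just outside lay EPS8 with 0.60 there.

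Many of the 53 SUM149PT-only genes that rose had their lowest LNA NS level in this line. In 44 of the 53 (83.0%) the LNA NS level was lowest in SUM149PT among the 3 lines, as it was in 33.1% of all genes tested and in 53.6% of the 1345 genes called higher. After knock-down 31 of the 53 (58.5%) were still lowest in SUM149PT, as 31.6% of all genes were. The set was chosen for a rise over these same LNA NS levels, so a low level there is partly built in. These shares describe the set and were not tested.

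**Figure D2:**
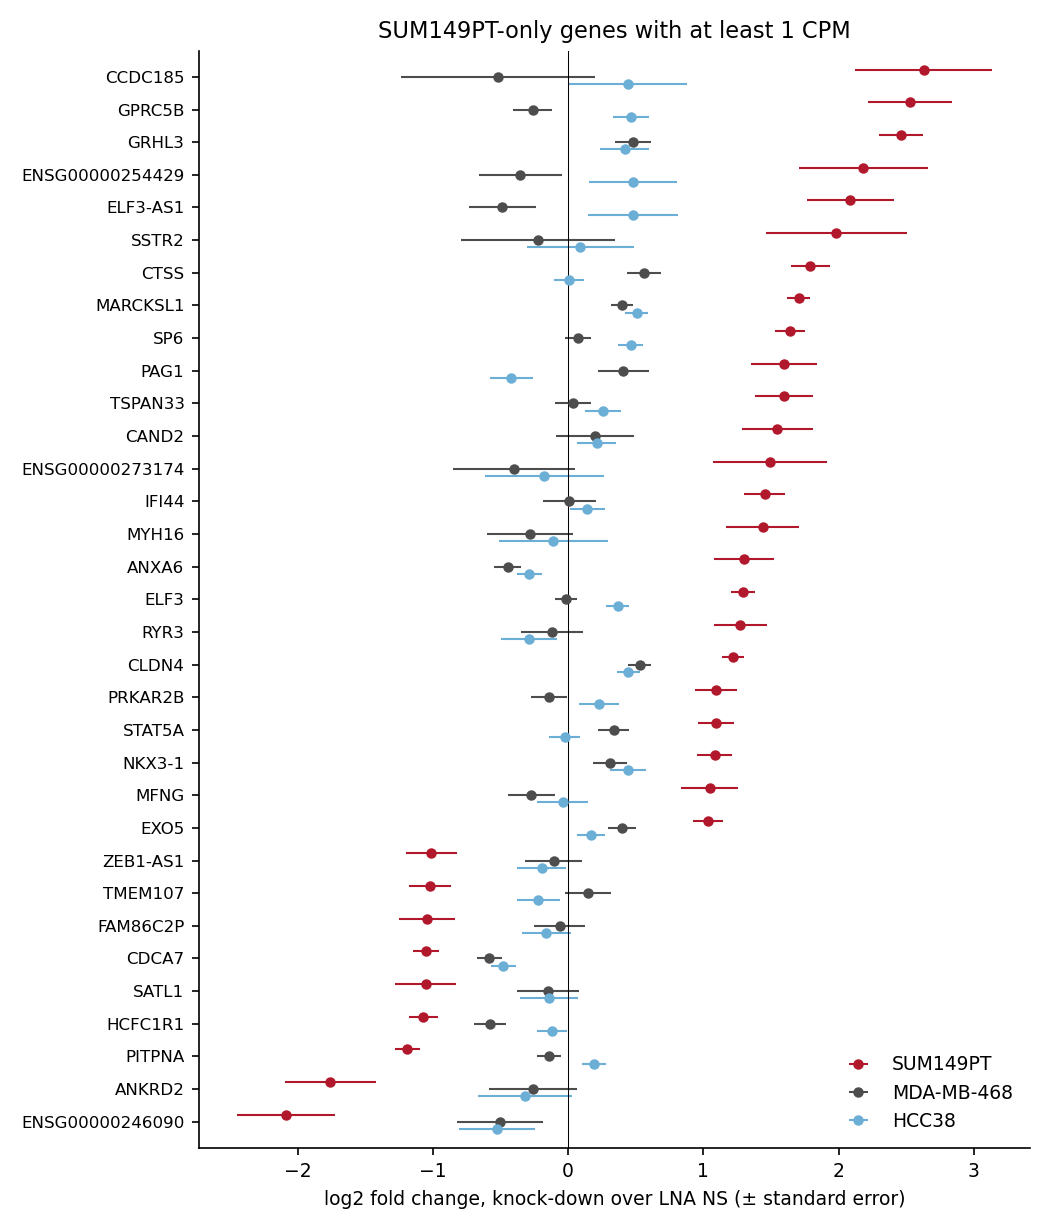
Log2 fold changes (knock-down over LNA NS, points, with bars of 1 standard error, 2 libraries per group) of named genes that moved in SUM149PT (red) and by less than 1.5-fold in MDA-MB-468 (grey) and HCC38 (blue), among those with at least 1 CPM. GRHL3 reached 2.46 in SUM149PT, with 0.48 in MDA-MB-468 and 0.42 in HCC38, and PITPNA was at −1.19, −0.14 and 0.19.

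Epithelial transcription factors were among the SUM149PT-only genes that rose. GRHL3, a grainyhead-like factor that acts in epidermal barrier formation and wound repair (chromosome 1 of GRCh37, from 24526048 to 24690972), was at 13.2 and 18.2 CPM after knock-down and at 2.68 and 3.00 CPM with LNA NS. Both knock-down libraries lay far above both LNA NS libraries, which is partly built in for a gene chosen by its change. The log2 fold change was 2.46 ± 0.16 (adjusted p = 5.7e-08), against 0.48 in MDA-MB-468 and 0.42 in HCC38, and the differences were 1.98 ± 0.20 and 2.04 ± 0.27. Its relatives moved otherwise: GRHL2 fell by 0.56 on the log2 scale, and the rise of GRHL1 by 0.34 was lost without knock-down replicate 1 (0.26) or LNA NS replicate 2 (0.22).

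ELF3, an ETS factor of differentiating epithelium (chromosome 1, plus strand, from 201977073 to 201986311), was at 73.5 and 82.8 CPM after knock-down and at 31.5 and 32.2 CPM with LNA NS. It rose by 1.29 ± 0.09 on the log2 scale (adjusted p = 6.2e-08), while MDA-MB-468 stood at −0.02 and HCC38 at 0.37. MDA-MB-468 held several times more ELF3 in all of its libraries. ELF3-AS1, an antisense lncRNA on the minus strand whose annotated span (201964824 to 201979591) overlaps ELF3, was at 2.14 and 2.56 CPM after knock-down and at 0.455 and 0.651 CPM with LNA NS. It rose too (log2 fold change 2.09 ± 0.32), and its difference from HCC38 of 1.61 was not called without SUM149PT LNA NS replicate 1 (1.36), HCC38 LNA NS replicate 2 (1.22) or HCC38 knock-down replicate 2 (1.47). No source used here gives the strand setting of the counting, so reads from the overlap of the pair cannot be told apart. In RefSeq the starts of ELF3 and ELF3-AS1 lie 234 bp apart on opposite strands, so that the window of 300 bases around the ELF3 start holds both. That window is printed because both genes rose together. It is chr1:202010337-202010636 of GRCh38.p14, plus strand, with the 50 bases from the ELF3 start on in capitals.
ELF3: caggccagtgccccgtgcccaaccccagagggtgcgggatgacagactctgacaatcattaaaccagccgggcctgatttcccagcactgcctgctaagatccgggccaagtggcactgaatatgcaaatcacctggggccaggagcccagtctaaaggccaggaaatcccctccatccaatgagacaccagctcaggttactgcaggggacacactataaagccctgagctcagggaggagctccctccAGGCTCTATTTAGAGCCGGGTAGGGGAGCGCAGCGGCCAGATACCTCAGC

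SP6, a zinc-finger factor of skin, tooth and limb epithelium, was at 19.4 and 20.1 CPM after knock-down and at 6.69 and 5.93 CPM with LNA NS (log2 fold change 1.64 ± 0.11, differences 1.57 and 1.18). STAT5A, which carries prolactin signals in the mammary gland, was at 10.9 and 13.3 CPM after knock-down and at 5.84 and 5.44 CPM with LNA NS (log2 fold change 1.09 ± 0.13, differences 0.76 and 1.12). In both genes the groups did not overlap, which is partly built in for genes chosen by their changes. ELF3, SP6 and STAT5A were named after their values were seen, as were CTSS and EXO5 below.

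Tight junction genes rose more often than they fell, here and in the other lines. CLDN4, a claudin of tight junctions (chromosome 7, from 73213872 to 73247020), was at 307 and 330 CPM after knock-down and at 136 and 138 CPM with LNA NS, the lowest LNA NS level of the 3 lines. It rose by 1.22 ± 0.08 on the log2 scale (adjusted p = 7.4e-08), and by 0.53 and 0.44 in MDA-MB-468 and HCC38, with differences of 0.69 and 0.77 (adjusted p = 0.0018 and 0.0016). Of the 37 tight junction and claudin genes tested, 14 rose (37.8%), 7 fell (18.9%) and 16 did not pass, with a median log2 fold change of 0.31 against 0.03 over all genes, of which 20.0% rose and 18.0% fell. In MDA-MB-468 15 rose and 11 fell (median 0.19, against 0 over all genes), and in HCC38 13 rose and 6 fell (median 0.11, against 0.008). The shares of all genes that rose or fell in those lines are not given here. Members of the polarity complex moved in opposite directions: PARD6B was at 21.5 and 25.5 CPM after knock-down and at 4.58 and 4.76 CPM with LNA NS (log2 fold change 2.33), whereas PARD3, its partner, was at 25.4 and 20.5 CPM after knock-down and at 92.3 and 87.5 CPM with LNA NS (log2 fold change −1.97). Both moved in the same direction in the other lines. CLDN1, another claudin, fell here by 0.61 on the log2 scale and rose in MDA-MB-468 (1.11) and HCC38 (0.39), with differences of −1.72 and −1.0 (adjusted p = 4.9e-06 and 0.00091).

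MARCKSL1, an actin-binding protein at the plasma membrane, had the highest level among the SUM149PT-only genes that rose. It was at 367 and 400 CPM after knock-down and at 114 and 121 CPM with LNA NS. The change of 1.71 ± 0.09 on the log2 scale (adjusted p = 4.9e-09) stood against smaller rises of 0.40 in MDA-MB-468 and 0.51 in HCC38. After knock-down SUM149PT had a level within the range of the other lines. RYR3, a calcium release channel that is found mainly in brain and muscle, was at 11.5 and 10.6 CPM after knock-down and at 3.72 and 5.47 CPM with LNA NS (log2 fold change 1.27 ± 0.19, differences 1.39 and 1.56). CTSS, the lysosomal protease cathepsin S, was at 6.68 and 7.19 CPM after knock-down and at 2.06 and 1.92 CPM with LNA NS (log2 fold change 1.79 ± 0.15). EXO5, a single-strand DNA exonuclease, was at 20.8 and 20.4 CPM after knock-down and at 10.0 and 10.1 CPM with LNA NS (log2 fold change 1.04 ± 0.11). All 3 lay apart between the groups, with no knock-down library as low as an LNA NS library, which is partly built in for genes chosen by their changes. The levels of TSPAN33, a tetraspanin, were 2.32 and 2.02 CPM after knock-down and 0.589 and 0.880 CPM with LNA NS (log2 fold change 1.59). GPRC5B, an orphan receptor, was at 1.00 and 1.07 CPM after knock-down and at 0.161 and 0.195 CPM with LNA NS (log2 fold change 2.53).

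**Figure D3:**
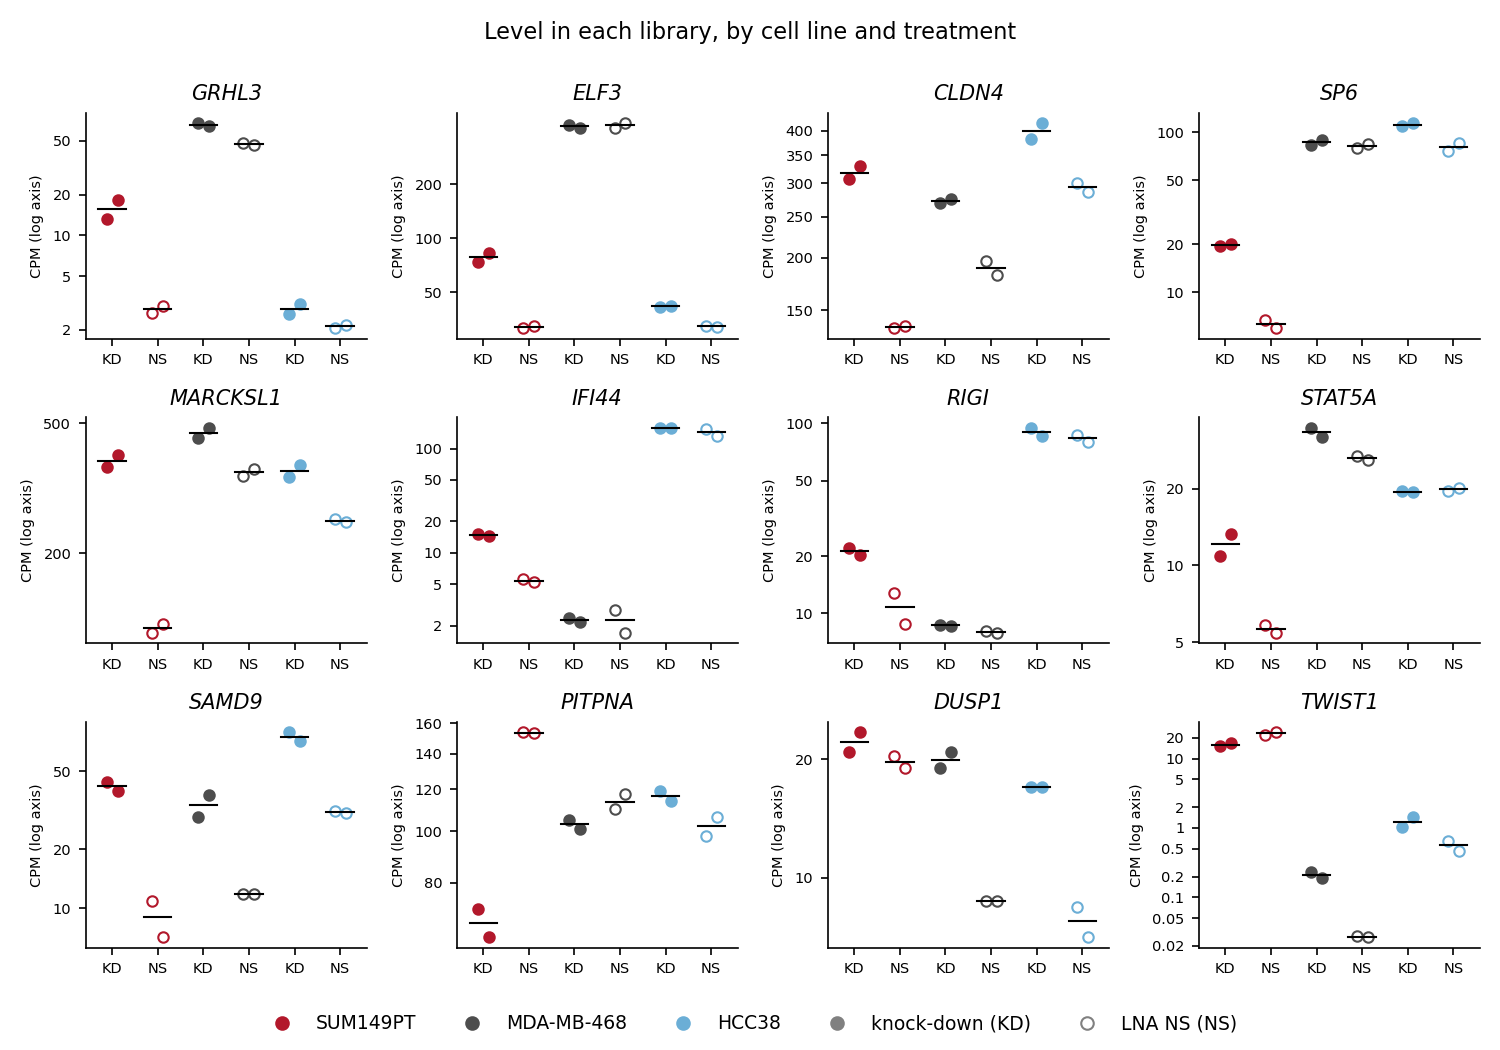
Level (CPM, log axis, a different range in each panel) of 12 genes in each of the 12 libraries, with filled points for knock-down, open points for LNA NS and lines for the group mean of 2 libraries. In SUM149PT (red) GRHL3, ELF3, CLDN4, SP6, MARCKSL1, IFI44, RIGI, STAT5A and SAMD9 were higher after knock-down and PITPNA lower, while DUSP1 rose in the other lines and TWIST1 was lower after knock-down in SUM149PT and higher in the other lines.

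PITPNA, a transfer protein for phosphatidylinositol, had the highest level among the SUM149PT-only genes that fell. The gene (chromosome 17, from 1421012 to 1466086) was at 71.4 and 63.0 CPM after knock-down and at 154 and 153 CPM with LNA NS. It fell by 1.19 ± 0.09 on the log2 scale (adjusted p = 2.2e-07), with −0.14 in MDA-MB-468 and 0.19 in HCC38 and differences of −1.05 and −1.38. Of 42 genes of the PI3K, AKT and mTOR pathway 10 rose (23.8%, near the 20.0% of all genes), 17 fell (40.5%, against 18.0%) and 15 did not pass, with a median log2 fold change of −0.05. TSC2, which restrains mTOR, was at 26.3 and 26.7 CPM after knock-down and at 71.7 and 67.7 CPM with LNA NS (log2 fold change −1.40). RPTOR, a subunit of mTOR complex 1, was at 38.3 and 32.4 CPM after knock-down and at 91.7 and 70.5 CPM with LNA NS (log2 fold change −1.20), and AKT1 fell by 0.70 on the log2 scale.

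Interferon-stimulated genes rose more often than they fell, here and in the other lines. Of 54 tested, 25 rose and 6 fell in MDA-MB-468 (median log2 fold change 0.29), and 22 rose and 5 fell in HCC38 (median 0.28). The median over all genes was 0 in MDA-MB-468 and 0.008 in HCC38, and the shares of all genes in those lines are not given here. The change in SUM149PT lay above both other lines in 6 members and below both in 2, beside 2.34% and 1.23% of all genes. In SUM149PT 29 rose (53.7%), 5 fell (9.26%) and 20 did not pass, beside 20.0% and 18.0% of all genes. The median log2 fold change was 0.46 against 0.03 over all genes. The number that fell was 3 without LNA NS replicate 1 and 2 without knock-down replicate 1. SAMD9, an antiviral factor (chromosome 7 of GRCh37, from 92728826 to 92747336), had 44.2 and 39.7 CPM after knock-down and 11.0 and 7.10 CPM with LNA NS, a log2 fold change of 2.21 ± 0.17 (adjusted p = 2.2e-07). IFI44, an interferon-inducible protein, had 15.1 and 14.6 CPM after knock-down and 5.60 and 5.21 CPM with LNA NS. IFI44 rose by 1.45 ± 0.15 on the log2 scale, while MDA-MB-468 stood at 0.01 and HCC38 at 0.14 (differences 1.45 and 1.31, adjusted p = 0.0019 and 0.0015). RIGI, a sensor of double-stranded RNA, had 22.1 and 20.4 CPM after knock-down and 12.8 and 8.76 CPM with LNA NS (log2 fold change 0.97 ± 0.14), with 0.12 and 0.11 in MDA-MB-468 and HCC38 and differences of 0.86 from each. GBP2, a guanylate-binding protein induced by interferon gamma, had 4.70 and 4.87 CPM after knock-down and 2.97 and 2.57 CPM with LNA NS. It rose here (0.78), fell in MDA-MB-468 (−1.03) and stood at −0.13 in HCC38. Other members rose in all lines. IFIT2, which binds viral RNA, was at 9.78 and 10.3 CPM after knock-down and at 2.70 and 3.06 CPM with LNA NS (log2 fold change 1.80, with 1.40 and 1.37 in the other lines). IFIH1, the other RNA sensor, was at 37.1 and 34.8 CPM after knock-down and at 18.0 and 14.2 CPM with LNA NS (log2 fold change 1.15). PSMB9, a subunit of the immunoproteasome, went the other way, with 9.50 and 9.30 CPM after knock-down and 21.7 and 23.8 CPM with LNA NS (log2 fold change −1.27). HCC38 held far more IFI44 and RIGI than SUM149PT in every library.

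The starts of 4 members that rose are printed to show the letters that interferon regulatory factors are known to bind in such genes. The windows run from 250 bases before the start to 50 bases from it on (RefSeq, GRCh38.p14), read in the direction of the gene. They are SAMD9 at chr7:93117930-93118229 on the minus strand, IFI44 at chr1:78649539-78649838 on the plus strand, PARP14 at chr3:122680589-122680888 on the plus strand and IFIH1 at chr2:162318635-162318934 on the minus strand. Capitals mark the letters GAAANNGAAA, searched on both strands, so that a match on the other strand reads TTTCNNTTTC.
SAMD9: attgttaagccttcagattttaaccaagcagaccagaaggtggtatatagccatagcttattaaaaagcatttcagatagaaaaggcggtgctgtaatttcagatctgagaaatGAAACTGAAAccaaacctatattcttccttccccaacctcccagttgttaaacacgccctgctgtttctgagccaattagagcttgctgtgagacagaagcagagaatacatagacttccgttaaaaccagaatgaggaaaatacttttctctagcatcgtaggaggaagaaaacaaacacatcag
IFI44: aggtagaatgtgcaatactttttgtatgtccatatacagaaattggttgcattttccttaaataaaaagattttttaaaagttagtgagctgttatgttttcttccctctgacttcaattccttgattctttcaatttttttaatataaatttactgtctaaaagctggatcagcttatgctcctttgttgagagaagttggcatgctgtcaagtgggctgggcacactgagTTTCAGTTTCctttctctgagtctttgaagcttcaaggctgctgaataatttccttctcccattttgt
PARP14: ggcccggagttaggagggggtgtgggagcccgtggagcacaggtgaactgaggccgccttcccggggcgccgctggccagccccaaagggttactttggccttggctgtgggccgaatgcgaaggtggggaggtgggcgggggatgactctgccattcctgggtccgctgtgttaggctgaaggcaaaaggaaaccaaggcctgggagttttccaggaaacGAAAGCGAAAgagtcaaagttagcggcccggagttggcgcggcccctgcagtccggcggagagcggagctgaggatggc
IFIH1: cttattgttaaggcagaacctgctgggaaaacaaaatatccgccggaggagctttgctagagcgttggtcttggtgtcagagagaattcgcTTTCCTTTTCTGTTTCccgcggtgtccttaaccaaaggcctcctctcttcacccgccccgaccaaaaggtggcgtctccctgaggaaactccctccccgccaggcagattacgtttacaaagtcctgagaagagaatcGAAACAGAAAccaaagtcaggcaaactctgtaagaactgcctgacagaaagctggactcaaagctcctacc
The first match began 136 bases before the start in SAMD9, 18 in IFI44, 29 in PARP14 and 159 in IFIH1, which has 3 matches, of which 2 overlap. Of 35116 such windows in RefSeq 1255 held a match (3.57%). Of the tested interferon genes 43 had an entry and 29 of these held one (67.4%), namely 17 of 23 that rose (73.9%) and 12 of 20 that did not (60.0%). The share over RefSeq is per window, while the interferon shares are per gene, counting a match in any window of the gene. A match is a description of the letters, and binding was not measured.

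Genes of several stress programs rose more often than they fell. Of 36 immediate early and AP-1 genes 21 rose (58.3%), 4 fell and 11 did not pass (median log2 fold change 0.64), and of 50 targets of the integrated stress response 28 rose (56%), 9 fell and 13 did not pass (median 0.26). Of 66 genes of the TNF and NF-kappaB response 34 rose (51.5%), 6 fell and 26 did not pass (median 0.34), of 49 p53 target genes 23 rose (46.9%), 4 fell and 22 did not pass (median 0.37), and of 40 core apoptosis genes 15 rose (37.5%), 6 fell and 19 did not pass (median 0.09), beside the 20.0% of all genes that rose. ATF3, a stress-induced factor on 3 of these lists, was at 49.1 and 56 CPM after knock-down and at 14 and 13.2 CPM with LNA NS (log2 fold change 1.95 ± 0.13, with 1.75 and 1.91 in MDA-MB-468 and HCC38). CHAC1, a glutathione-degrading enzyme downstream of ATF4, was at 68.4 and 71.9 CPM after knock-down and at 23.5 and 24.1 CPM with LNA NS (log2 fold change 1.56). PMAIP1, which encodes the BH3-only protein NOXA, was at 59.2 and 71.6 CPM after knock-down and at 21.9 and 24.3 CPM with LNA NS (log2 fold change 1.5). In each the knock-down libraries lay above the LNA NS libraries, which is partly built in for genes that passed the test. CDKN1A, the p21 cell cycle inhibitor, was at 158 and 170 CPM after knock-down and at 165 and 177 CPM with LNA NS (log2 fold change −0.06, adjusted p = 0.68), and MDM2, the p53 ubiquitin ligase, rose by 0.60 on the log2 scale. TNFAIP3, an inhibitor of NF-kappaB, was at 128 and 134 CPM after knock-down and at 61.1 and 53.1 CPM with LNA NS, and its rise of 1.20 on the log2 scale was smaller than that in MDA-MB-468 (difference −1.12, adjusted p = 0.00039). BIRC3, another feedback gene of NF-kappaB, was at 246 and 232 CPM after knock-down and at 111 and 102 CPM with LNA NS (log2 fold change 1.17), further than in HCC38 (difference 0.75, adjusted p = 0.0056). The difference of BIRC3 from MDA-MB-468 was 0.52 and was not called without MDA-MB-468 LNA NS replicate 1 (0.35), knock-down replicate 1 (0.47) or LNA NS replicate 2 (0.45).

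**Figure D4:**
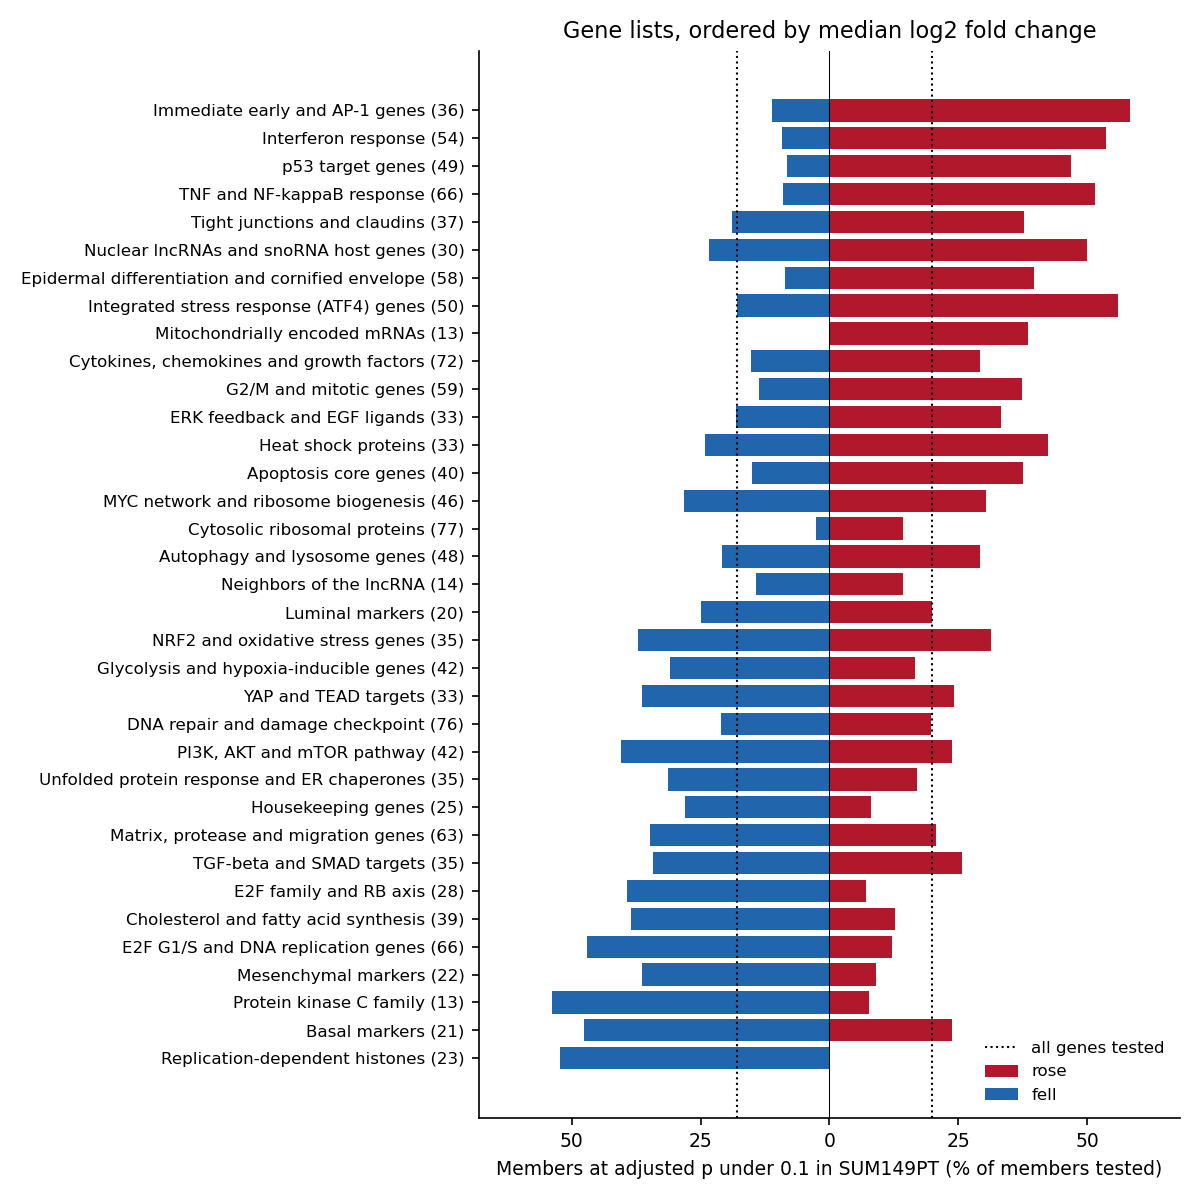
Share of the tested members of each gene list (number tested in brackets) that rose (red, to the right) or fell (blue, to the left) in SUM149PT at an adjusted p under 0.1, in % of members, ordered by the median log2 fold change. Dotted lines mark the shares over all genes tested, 20.0% and 18.0%. Immediate early and AP-1 genes and interferon genes lie at the top and replication-dependent histones at the bottom.

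Some genes of these same programs moved less in SUM149PT than in both other lines. Over all genes the change lay above that of both other lines in 498 (2.34%) and below it in 263 (1.23%), each difference at an adjusted p under 0.1. Below both were 6 of the 36 immediate early genes, 7 of the 50 stress response genes and 6 of the 33 ERK feedback genes and EGF ligands, while 1, 0 and 3 members of these lists lay above both. DUSP5, a phosphatase of nuclear ERK, was one of those above, with 19.8 and 18.5 CPM after knock-down and 11.2 and 11.4 CPM with LNA NS (log2 fold change 0.76, differences 0.58 and 0.68, adjusted p = 0.02 and 0.0097). DUSP1, a phosphatase that shuts off MAP kinases, was at 20.8 and 23.4 CPM after knock-down and at 20.4 and 19.1 CPM with LNA NS. Its log2 fold change was 0.16 ± 0.12 (adjusted p = 0.35), against 1.20 in MDA-MB-468 and 1.14 in HCC38, with differences of −1.03 and −0.97 (adjusted p = 0.0019 and 0.0043). With LNA NS the SUM149PT level was above both other lines, and after knock-down the 3 lines came close to each other. DUSP10, a phosphatase of JNK and p38, had 133 and 139 CPM after knock-down and 134 and 138 CPM with LNA NS, with differences of −1.08 and −0.74. STC2, a secreted glycoprotein and a target of ATF4, had 185 and 192 CPM after knock-down and 164 and 157 CPM with LNA NS (log2 fold change 0.23), whereas it rose by 1.15 and 1.09 in the other lines. SLC7A5, the leucine transporter, had 1042 and 1041 CPM after knock-down and 981 and 892 CPM with LNA NS (log2 fold change 0.15, adjusted p = 0.20), with differences of −0.65 and −0.66. IL6, the cytokine, had 19.2 and 19.1 CPM after knock-down and 13.2 and 14.9 CPM with LNA NS. It rose by 0.45 on the log2 scale here (not called without LNA NS replicate 1, 0.37), by 1.76 in MDA-MB-468 and by 1.36 in HCC38. KLF6, an immediate early zinc-finger factor, had a log2 fold change of −0.34 here, which was not called without knock-down replicate 1 (−0.33) or LNA NS replicate 1 (−0.28), and rose by 0.53 and 0.46 in the other lines. ADAM8, a membrane protease, had 121 and 122 CPM after knock-down and 134 and 123 CPM with LNA NS, while it rose by 0.91 in MDA-MB-468 and by 1.13 in HCC38 on the log2 scale.

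**Figure D5:**
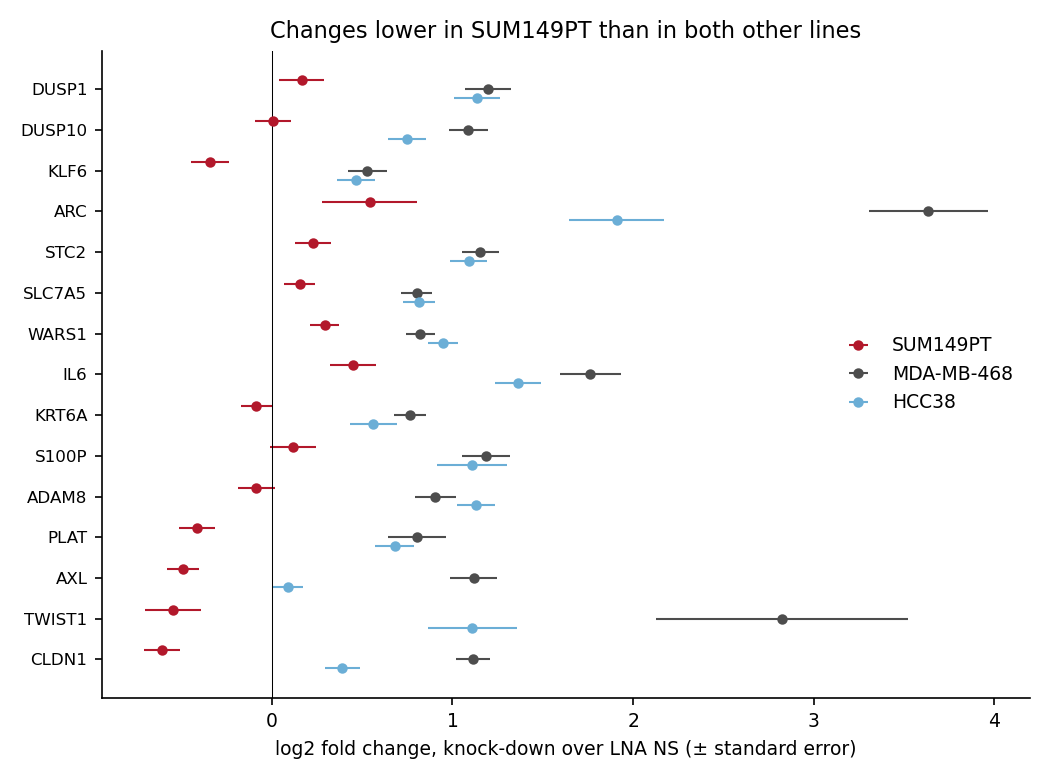
Log2 fold changes (knock-down over LNA NS, points, with bars of 1 standard error, 2 libraries per group) of 15 genes whose change in SUM149PT (red) lay below that in MDA-MB-468 (grey) and HCC38 (blue). DUSP1 was at 0.16, 1.20 and 1.14, and CLDN1 at −0.61, 1.11 and 0.39.

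Mesenchymal and basal genes fell more often than they rose. Of 22 mesenchymal markers tested 2 rose (9.09%), 8 fell (36.4%) and 12 did not pass (median log2 fold change −0.24), and of 21 basal markers 5 rose (23.8%), 10 fell (47.6%) and 6 did not pass (median −0.37), beside 20.0% and 18.0% of all genes. The summed level of the basal markers was 6916 and 6593 CPM after knock-down and 8883 and 8382 CPM with LNA NS. That of the mesenchymal markers was 3077 and 2778 CPM after knock-down and 2822 and 2179 CPM with LNA NS, with overlapping groups and a higher mean after knock-down. Without knock-down replicate 2 or LNA NS replicate 1 the basal rises were 3, and the mesenchymal rises were 1 when replicate 2 of either group was left out. TWIST1, a factor that drives the mesenchymal state, was at 14.9 and 16.6 CPM after knock-down and at 22.1 and 23.9 CPM with LNA NS, by far the highest levels of the 3 lines. It fell by 0.55 ± 0.15 on the log2 scale (adjusted p = 0.013), a call lost without knock-down replicate 1 (−0.47) or LNA NS replicate 2 (−0.49). In HCC38 TWIST1 rose by 1.11 on the log2 scale, with a difference of −1.66 (adjusted p = 0.0037) that was called without any 1 library. The knock-down libraries of MDA-MB-468 had 18 counts of TWIST1 and its LNA NS libraries 2 (scaled ratio 7.76, 95% interval 1.86 to 68.9). AXL, a receptor tyrosine kinase, was at 101 and 100 CPM after knock-down and at 147 and 135 CPM with LNA NS (log2 fold change −0.49, with 1.12 and 0.09 in the other lines). SNAI2, the factor SLUG, was at 31.9 and 26.9 CPM after knock-down and at 50.9 and 52.7 CPM with LNA NS (log2 fold change −0.81). VIM, vimentin, went the other way, with 308 and 266 CPM after knock-down and 160 and 175 CPM with LNA NS (log2 fold change 0.78), and CDH1, E-cadherin, had a log2 fold change of 0.08 (adjusted p = 0.67). ITGB4, the hemidesmosome integrin, was at 30.3 and 26.3 CPM after knock-down and at 84.4 and 75.7 CPM with LNA NS (log2 fold change −1.5).

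Among epidermal differentiation genes 23 of 58 rose (39.7%), 5 fell (8.62%) and 30 did not pass, beside 20.0% and 18.0% of all genes. Their median log2 fold change was 0.27. With at least 10 counts in every library the numbers were 15 and 3. ABCA12, the lipid transporter of the skin barrier, was at 81.1 and 66.3 CPM after knock-down and at 22.7 and 17.6 CPM with LNA NS. It rose by 1.87 ± 0.15 on the log2 scale, and by 0.84 in each of the other lines (differences 1.03 and 1.03, adjusted p = 0.0051 and 0.016). KRT15, a keratin of basal epidermis, was at 27.5 and 32.4 CPM after knock-down and at 19.4 and 19.3 CPM with LNA NS (log2 fold change 0.63), while it fell in MDA-MB-468 (−0.68) and was at −0.28 in HCC38. KRT6A, a keratin of activated epidermis, was at 1665 and 1610 CPM after knock-down and at 1747 and 1728 CPM with LNA NS (log2 fold change −0.09, adjusted p = 0.50), and rose by 0.77 and 0.56 in the other lines. DSC3, a desmosomal cadherin, rose by 1.08 on the log2 scale here, by 1.41 in MDA-MB-468 and by 1.01 in HCC38.

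ID1 and ID3, which encode inhibitors of basic helix-loop-helix factors and respond to BMP signals, fell. ID3 was at 135 and 116 CPM after knock-down and at 442 and 495 CPM with LNA NS, a log2 fold change of −1.90 ± 0.10 (adjusted p = 6.7e-09). This was further than in MDA-MB-468 (difference −0.94, adjusted p = 0.00067) and HCC38 (−0.75, adjusted p = 0.0049). ID1 was at 60.6 and 54.6 CPM after knock-down and at 177 and 196 CPM with LNA NS (log2 fold change −1.69). SMAD6, another BMP target, was at 3.46 and 3.39 CPM after knock-down and at 8.41 and 8.44 CPM with LNA NS (log2 fold change −1.30, difference from MDA-MB-468 −0.92 with adjusted p = 0.0078). BAMBI went the other way and rose by 0.96 on the log2 scale (adjusted p = 1.75e-06). Of 35 TGF-beta and SMAD genes 9 rose (25.7%), 12 fell (34.3%) and 14 did not pass (median log2 fold change −0.12, with 20.0% and 18.0% of all genes rising and falling), and 5 rose without LNA NS replicate 2. Matrix and protease genes fell in 22 of 63 (34.9%) and rose in 13 (20.6%, near the share of all genes). COL5A1, a fibrillar collagen, was at 20.9 and 19.8 CPM after knock-down and at 74.2 and 63.1 CPM with LNA NS (log2 fold change −1.75). PLAT, tissue plasminogen activator, was at 227 and 221 CPM after knock-down and at 303 and 293 CPM with LNA NS. It fell by 0.41 on the log2 scale here and rose by 0.80 and 0.68 in the other lines (differences −1.22 and −1.09, adjusted p = 0.00098 and 0.00066).

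Genes of DNA replication fell more often than they rose, while over all genes tested 20.0% rose and 18.0% fell. Of 66 E2F targets of G1/S and replication 8 rose (12.1%), 31 fell (47%) and 27 did not pass (median log2 fold change −0.20), and the rises were 2 without knock-down replicate 1 or LNA NS replicate 2. POLE, the catalytic subunit of DNA polymerase epsilon, was at 54.4 and 48.5 CPM after knock-down and at 164 and 143 CPM with LNA NS (log2 fold change −1.57). E2F1 itself was at 92.4 and 95.5 CPM after knock-down and at 115 and 127 CPM with LNA NS (log2 fold change −0.36, adjusted p = 0.0043). Of 59 mitotic genes 22 rose (37.3%), 8 fell (13.6%) and 29 did not pass, but the rises were 9 without knock-down replicate 1 and 12 without LNA NS replicate 2, and the falls 5 when knock-down replicate 2 or LNA NS replicate 1 was left out. By the same count MDA-MB-468 had 37 that rose and 9 that fell, and HCC38 had 1 and 34. The median log2 fold change of these genes was 0.34 in MDA-MB-468 and −0.31 in HCC38, against 0 and 0.008 over all genes. The shares of all genes in those lines are not given here. KIF14, a mitotic kinesin, was at 94.0 and 80.4 CPM after knock-down and at 48.5 and 42.5 CPM with LNA NS, with a difference from HCC38 of 1.29 (adjusted p = 0.0016). CCNB1, cyclin B1, was at 449 and 379 CPM after knock-down and at 283 and 299 CPM with LNA NS, with a difference from HCC38 of 0.82 (adjusted p = 0.0029). Replication-dependent histones, whose mRNAs mostly lack the polyA tail that was selected for, fell in 12 of 23 tested (52.2%), and in 3 without knock-down replicate 1 and 4 without LNA NS replicate 2.

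A few genes were called in opposite directions here and in another line. There were 49 such genes (0.230% of those tested), 32 higher and 17 lower in SUM149PT, and 26 of the 32 and 10 of the 17 were under 1 CPM in the SUM149PT group where they were higher. With at least 10 counts in every library there were 6 such genes. Without SUM149PT knock-down replicate 2 there were 84. IGF2BP3, an RNA-binding protein of fetal and tumor cells, was at 1.95 and 1.99 CPM after knock-down and at 1.02 and 0.489 CPM with LNA NS. It rose by 1.35 on the log2 scale and fell by 0.85 in MDA-MB-468 and by 1.01 in HCC38 (differences 2.20 and 2.36, adjusted p = 0.0013 and 0.0015). CMYA5, a muscle scaffold protein, was at 4.37 and 4.07 CPM after knock-down and at 1.39 and 0.391 CPM with LNA NS (log2 fold change 2.19, with −1.04 in MDA-MB-468 and −0.07 in HCC38). CYP4B1, a cytochrome P450, fell here (log2 fold change −1.35) and in MDA-MB-468 (−1.30), with a difference of −0.05 (adjusted p = 0.99). It rose in HCC38, where the knock-down libraries had 19 counts and the LNA NS libraries 3 (scaled ratio 6.53, 95% interval 1.92 to 34.4).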

How the data were processed

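PolyA-selected, strand-specific RNA-seq libraries were made from the 3 lines under both treatments, 2 libraries per group, which makes 12. For each library the authors deposited raw read counts of 63677 Ensembl genes as whole numbers, with no normalization. The study's methods give alignment to GRCh37 (hg19) with STAR and counting with HTSeq, while the submitters' processing notes name TopHat2 2.0.13 as well as HTSeq 0.6.0, R 3.1.1, DESeq 3.0, CASAVA 1.8.4 and bedtools 2.17.0, so the aligner of these counts is uncertain. The annotation release and the counting's strand setting were not given in the sources used here. Each file ends in 5 lines of HTSeq totals for reads assigned to no gene, and these stayed out of library sizes and tests. In the SUM149PT libraries they held 44.4% to 53.7% of the deposited counts, with 29.9% to 31.7% for reads without a unique alignment and 6.59% to 12.4% for reads in no gene, and mitochondrial mRNAs took 4.58% to 6.20% of the gene counts. Symbols, types and positions came from GENCODE v44 on GRCh37 coordinates, which matched 55665 IDs, and the unmatched IDs held 0.636% of the counts. No SUM149PT library was a copy of its replicate, since chi-square per degree of freedom over genes with at least 10 counts in the pair was 27.9 for knock-down and 22.7 for LNA NS.

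Counts were tested with edgeR 4.0.16 in R 4.3.3 by the quasi-likelihood test with TMM scaling, filterByExpr (minimum count 10, minimum total 15) and a mean for each of the 6 groups. There were 21325 genes, 6 residual degrees of freedom and a common dispersion of 0.0109, and the spread of SUM149PT was estimated together with that of the other groups. Differences between lines were contrasts of the same fit. No gene list was given a set test. Positions in RefSeq promoter windows are on GRCh38.p14 and were not mixed with those of the files. The procedure was tested on simulated counts. Alternatives were other scalings, filters, thresholds and DESeq2 1.42.0, leaving out each library, and a replicate block. Counting intervals are exact conditional 95% intervals of a ratio of counts and cover counting error only.

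The genes named in the text are the targeted lncRNA, the largest protein-coding rises and falls, the largest gains and losses in CPM, the SUM149PT-only genes and those called in opposite directions with the largest or firmest differences (all with at least 1 CPM in the higher group), and members of 36 fixed gene lists. The genes of interest and the lists, of 1419 distinct genes, were chosen with earlier results of these data known. Results on some genes that the rule names are not reported here. Figures were drawn with matplotlib 3.10.9.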

Additional observations from a re-analysis of the deposited data

Results flagged for a closer look

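The change in SUM149PT differed from that in each of the other lines, in the same direction and in the test of the differences themselves, for 70 of the 172 genes singled out for naming. For 28 of them both differences were larger than 1 on the log2 scale (2-fold), and only these are given here. The value given is the smaller of the 2 differences on the log2 scale (SUM149PT minus the other line), with HCC38 as the nearer line unless MDA-MB-468 is named. Genes were named partly for such differences, so the number is not a rate. Groups of 2 libraries are too small for a search for a single library that stands apart.

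In 16 of the 28, both differences were called without any 1 of the 12 libraries. Above the other lines were the regulators GRHL3 (1.98, MDA-MB-468) and SP6 (1.18), the interferon gene IFI44 (1.31), and the membrane and actin genes MARCKSL1 (1.20), ANXA6 (1.59), TSPAN33 (1.34), GPRC5B (2.06) and RYR3 (1.39, MDA-MB-468). CTSS (1.23, MDA-MB-468), ABCA12 (1.03), CMYA5 (2.26) and IGF2BP3 (2.20, MDA-MB-468) were above them as well. Below the other lines were PITPNA (−1.05, MDA-MB-468), TWIST1 (−1.66), ARC (−1.37), an immediate early gene of neurons, and PLAT (−1.09). The difference of CMYA5 ranged from 1.68 to 3.50 over the fits without 1 library, the widest range of these 16.

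In the other 12 at least 1 difference was no longer called without some library. GLYATL2 (2.78) lost a call without 2 of the 12 libraries, PAG1 (1.19, MDA-MB-468) without 2, MFNG (1.08) without 1, and ELF3-AS1 (1.61) without 3. ENSG00000254429 (1.70) lost a call without 4, CAND2 (1.34) without 5, ANKRD2 (−1.44) and MYH16 (1.55) without 6 each, ENSG00000246090 (−1.56) without 7 and CCDC185 (2.19) without 8. SSTR2 (1.89) and ENSG00000273174 (1.67) lost one without 10 each. For MFNG the library was SUM149PT LNA NS replicate 1, without which its difference was 0.84. For PAG1 they were MDA-MB-468 LNA NS replicate 1 and SUM149PT LNA NS replicate 1, and for GLYATL2 SUM149PT knock-down replicate 1 and HCC38 LNA NS replicate 2. The smaller differences of these 12 kept their sign in every such fit.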

How the results depend on the processing

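Each number of genes under an alternative counts all that passed there, whether or not they passed in the fit used above. In SUM149PT 2265 genes were called (1345 higher, 920 lower). With at least 10 counts in every library there were 1098 (505 and 593), and 1081 of these were among the 2265. At an adjusted p under 0.01 there were 1360 (692 higher), and 8101 (4260 and 3841) passed without a limit on the fold. DESeq2 called 1972. Leaving out 1 SUM149PT library gave 1892 to 2151 calls, 1036 to 1213 higher and 841 to 956 lower. The 65 SUM149PT-only genes were 253 (161 higher, 92 lower) without a limit on the fold, 15 (13 and 2) at an adjusted p under 0.01 and 152 (124 and 28) without a limit in the other lines. Without 1 of the 12 libraries they were 43 to 74, 36 to 62 higher and 5 to 15 lower. Of the 65, 10 met the conditions in every alternative fit that tested them (18 fits for RIMS4 and 19 for the others), 8 higher and 2 lower. The 49 genes called in opposite directions were 6 with at least 10 counts in every library, 553 without a limit on the fold, 10 at an adjusted p under 0.01, and 35 to 84 without 1 library. The cause of these moves was not tested. None of the 304 fold changes and differences of named genes that passed the test changed sign under these alternatives. Of 13 that did not pass, 5 did, among them CDH1 (−0.05 to 0.23 without 1 library).

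The replicate numbers did not pair the libraries alike in all lines. Over 9871 genes the correlation of same-numbered deviations was 0.30 in SUM149PT, −0.10 in MDA-MB-468 and −0.42 in HCC38. Whether they pair the libraries of SUM149PT cannot be told from this. With a replicate block 2122 genes were called (2063 shared with the fit without it), 56 were SUM149PT-only genes, and 58 were called in opposite directions. With 2 libraries per group and 32187835 to 56191152 counts, genes under 1 CPM are measured least well, and they make up 666 of the 1345 higher calls.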
